A study of Mus musculus with 15 samples.

Results

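A set of 10 genes that govern the G1 phase of the cell cycle were described in mouse CD8+ T cells: the cyclin genes Ccnd2, Ccnd3, Ccne1 and Ccne2, the kinase genes Cdk4 and Cdk6, the inhibitor genes Cdkn1a, Cdkn1b and Cdkn2c, and Skp2. They were given as a list of gene names, drawn up with earlier results of these data known, and all 10 were found among the 55536 annotated genes of the count table. All 10 passed the filter on low counts, which left 17366 genes for testing. The cells were OT-I cells on a C57BL/6J background, which carry a transgenic T cell receptor for an ovalbumin peptide, and 3 groups of 5 RNA sequencing libraries were compared. Per the study's methods, the OT-I donor mice lacked Rag1 or Rag2. Naive libraries came from untreated OT-I mice whose cells were not transferred. Ag libraries came from OT-I cells moved into C57BL/6J recipients that received antigen, with control rat IgG per the study's methods. Ag+Costim libraries came from recipients that were given, beside antigen, agonist antibodies to OX40 and CD137, a pair of costimulatory receptors. Transferred cells were collected from spleen and lymph nodes after 4 days per the labels and sorted, so both antigen groups share the transfer and the host, and the Naive group lacks them. The labels give no age of the animals and do not say whether each library is 1 animal. The study's methods give only an age range for all its mice, and a legend with 5 samples per group calls each a biological replicate. The p-values measure only the spread between these libraries.

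In G1, D cyclins bind CDK4 or CDK6 and E cyclins bind CDK2. These kinase pairs phosphorylate the retinoblastoma family of pocket proteins and free E2F factors, which switch on the genes of DNA replication. Inhibitors of the INK4 class, such as the product of Cdkn2c, bind CDK4 and CDK6, while the CIP/KIP class, encoded by Cdkn1a and Cdkn1b, binds cyclin and CDK pairs. Skp2 is the subunit of a ubiquitin ligase that marks the Cdkn1b product for degradation. Resting naive T cells hold this pathway back, and stimulated T cells divide quickly.

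Total counts ranged from 4865952 in Ag 3 to 25280667 in Naive 3. All Ag libraries were on sequencing lane 2, all Naive libraries on lane 3, and the Ag+Costim libraries on lane 2 (replicates 1 to 3) and lane 3 (replicates 4 and 5). Within groups the libraries were not alike. The summed level of 15 E2F-controlled S phase genes was 1291, 2937, 1186, 977 and 6765 CPM (counts scaled to a common library size) in Naive 1 to 5. It was 1430, 8180, 6552, 1459 and 8710 in Ag 1 to 5, and 8435 to 10727 in Ag+Costim. Ag 1 and Ag 4 thus lay among the Naive libraries by this sum, and Naive 5 lay among the Ag libraries. In the deposited FPKM table, which was not used here, the columns of Ag 1 and Naive 5 hold identical values, while their count columns differ. Results are therefore also given without these libraries. CD8 T cell markers (6 of 6 detected in every library) summed to 4451 to 8169 CPM. The summed level of 5 B cell markers was 137 in Ag 1, 361 in Ag 3 and 168 in Ag 4, against 13.7 to 31.7 CPM elsewhere, and 3 of the 4 tested were called higher in Ag than in Naive. Pax5 was at 0 in 2 Ag, 1 Naive and 1 Ag+Costim libraries. The 4 erythroid markers reached 617 CPM in Ag 3 and at most 72.1 CPM elsewhere. Ag 3 also had the fewest reads counted (16.9% of its reads), and Ag 2 and Ag 5 had the lowest recorded input (1.4 and 1.8, unit not given). Myeloid markers summed to 8.77 to 161 CPM, highest in Naive 5, CD4 T cell markers to 1.10 to 21.0 CPM and NK cell markers to 0 to 41.6 CPM. In Ag+Costim against Naive 3 of 6 CD8 markers and both NK cell markers were called lower. The part of these markers in the results was not tested.

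Ag+Costim cells differed from Naive cells in 8 of the 10 genes. At an adjusted p under 0.05 (edgeR quasi-likelihood test with Benjamini-Hochberg adjustment over all genes), 6 genes rose (Ccnd3, Ccne2, Cdk4, Cdkn1a, Cdkn2c and Skp2), against 21.0% of all genes tested. Both Ccnd2 and Cdkn1b fell, against 23.6% of all genes. The median log2 fold change of the 10 genes was 1.13, beside -0.08 over all genes. In 4 genes (Ccnd3, Ccne2, Cdk4 and Cdkn2c) every Ag+Costim library lay above every Naive library, which 22.7% of all genes did, and in Ccnd2 every one lay below, which 22.3% of all genes did. The pair not called, Ccne1 and Cdk6, had adjusted p-values of 0.0583 and 0.0587.

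For Ag against Naive none of the 10 genes was called, where 3.05% of all genes were called higher and 3.66% lower. At an unadjusted p under 0.05 there were 3 of them (Cdk4, Cdkn1a and Cdkn2c), DESeq2 called 0, and limma-voom with sample weights called 1 (Cdkn2c, log2 fold change 1.11, adjusted p = 0.0149). Among all 17366 genes, 4980 had an unadjusted p under 0.05. DESeq2 called 1281 of them higher and 1497 lower, and limma-voom 1873 and 2147. No gene of the 10 had Ag and Naive libraries that did not overlap, a pattern that 1.76% of all genes showed upwards and 2.09% downwards. For Ag+Costim against Ag none was called either, where the test called 0.0288% of all genes higher and 0.00576% lower. At an unadjusted p under 0.05 there were 2 (Cdk6 and Skp2), DESeq2 called these 2, and limma-voom called all 10 along with 11195 genes overall. Among all 17366 genes, 4647 had an unadjusted p under 0.05, and DESeq2 called 664 higher and 1869 lower. Ccne2 and Skp2 were higher in every Ag+Costim library than in every Ag library, which 4.23% of all genes were, and no gene was lower in every one, which 2.10% of all genes were. The 3 comparisons share libraries, so their values are set side by side and not tested for likeness.

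**Figure D1:**
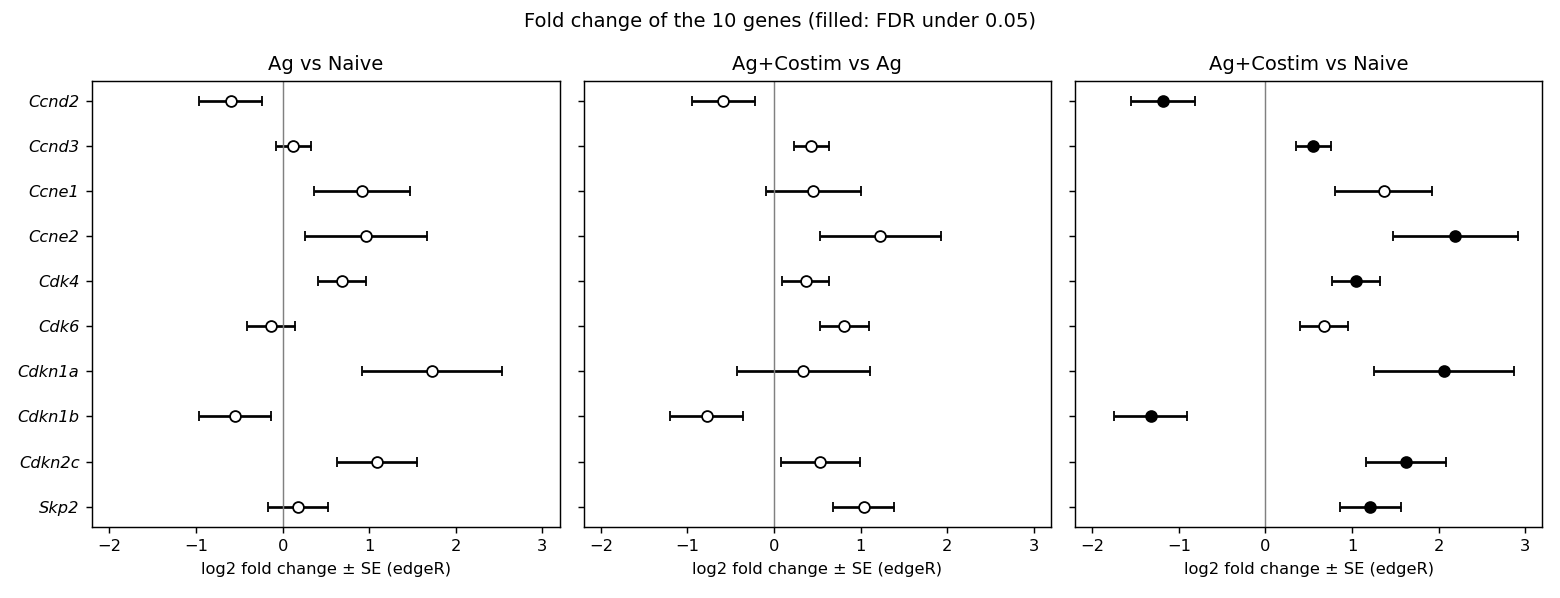
Log2 fold change with its standard error (edgeR) of the 10 genes in the 3 comparisons, with filled points for an adjusted p under 0.05. The filled points, 8 of 10, stand in Ag+Costim against Naive, from -1.33 for Cdkn1b to 2.19 for Ccne2.

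The counts also varied with the way the lane was handled. Lane and group overlap in this design, with all Ag libraries on lane 2 and all Naive libraries on lane 3. Only the Ag+Costim libraries were on both lanes, so a lane term rests on 3 of them against 2. With lane as a term in the model none of the 10 genes was called in any comparison, and in Ag+Costim against Naive the adjusted p-values were then 0.0584 to 0.139 with fold changes in the same directions. That fit called 258 of all 17366 genes higher and 685 lower in Ag+Costim against Naive. In the comparisons with Ag it called 0 of all genes. Within lane 3 (Ag+Costim 4 and 5 against the Naive libraries) 5 of the 10 were called: Ccnd3, Cdk4, Cdk6, Cdkn1b and Skp2. Among all 18287 genes in that fit, 2571 were called higher and 3772 lower. Within lane 2 (Ag+Costim 1 to 3 against the Ag libraries) none was called, with adjusted p-values of 0.628 to 0.886. None of the 16920 genes in that fit was called either. No lane holds both Ag and Naive libraries. Without Naive 5, the call count in Ag+Costim against Naive was 10 of 10, and in Ag against Naive 4 of 10 (Ccne1, Cdk4, Cdkn1a and Cdkn2c). Among all 17981 genes of that fit, 4604 were called higher and 4560 lower in Ag+Costim against Naive. In Ag against Naive they were 2270 and 1601. The count in Ag+Costim against Naive was 2 without Naive 1 (Cdk4 and Cdkn2c), 4 without Naive 3, 3 without Naive 4, 4 without Ag+Costim 4 and 3 without Ag+Costim 5. Over all genes, calls higher and lower were then 1447 and 2488, 1999 and 3044, and 1413 and 2479 without Naive 1, 3 and 4. Without Ag+Costim 4 they were 3179 and 2191, and without Ag+Costim 5 they were 2267 and 2918. The count in Ag+Costim against Ag was 2 without Ag 2 (Cdk6 and Skp2) and 2 without Ag 5 (Ccnd3 and Skp2). Beside these, 965 of 18092 genes were called higher and 1714 lower without Ag 2. Without Ag 5 they were 756 and 2817 of 18108.

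The D cyclins moved in opposite directions. Ccnd2 (chr6:127125162-127152193, minus strand, GRCm38) was at 547, 372, 664, 628 and 244 CPM in Naive 1 to 5. In Ag 1 to 5 it was at 575, 172, 162, 516 and 193 CPM, and in Ag+Costim at 229, 210, 224, 215 and 202 CPM. Each Ag+Costim library was below every Naive library, the nearest being Naive 5, while Ag 1 and Ag 4 were at the Naive level and the other Ag libraries were below the Ag+Costim level. Ccnd2 fell by 1.18 ± 0.37 (SE) on the log2 scale in Ag+Costim against Naive (n = 5 and 5, edgeR, adjusted p = 0.0230). The values of the other comparisons were -0.60 for Ag against Naive (adjusted p = 0.275) and -0.58 for Ag+Costim against Ag (adjusted p = 0.315).

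Ccnd3 (chr17:47505051-47599691, plus strand), the other D cyclin gene of these cells, was at 274, 318, 309, 294 and 365 CPM in Naive. It was at 216, 430, 316, 233 and 505 CPM in Ag and at 428, 426, 418, 531 and 487 CPM in Ag+Costim. No Ag+Costim library came down to the Naive range. Ag 1 and Ag 4 were below that range, Ag 3 was inside it, and Ag 2 and Ag 5 were inside the Ag+Costim range. Ccnd3 rose by 0.55 ± 0.20 in log2 fold change in Ag+Costim against Naive (adjusted p = 0.0413, edgeR). In Ag against Naive its difference was 0.12 (adjusted p = 0.701) and turned to -0.29 with limma-voom and to -0.07 without Ag 5. In Ag+Costim against Ag it was 0.43 (adjusted p = 0.193), and Ccnd3 was called there without Ag 5 (0.63, adjusted p = 0.0343). Per transcript length, the level of Ccnd2 was 0.225 to 0.626 times that of Ccnd3 in Naive libraries, 0.118 to 0.769 times in Ag and 0.120 to 0.178 times in Ag+Costim. Every Ag+Costim ratio was thus below every Naive ratio, and Ccnd3 exceeded Ccnd2 per length in all 15 libraries. An exonic stretch of 361 bases, 4.11% of the exonic bases of Ccnd3, overlaps Bysl on the opposite strand, and in unstranded libraries reads of the pair cannot be told apart there.

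Ccnd3 has annotated starts far apart. The bases upstream of both are shown because the share of the internal transcript differed widely between libraries within both antigen groups, not by group (RefSeq promoter windows on GRCm38, plus strand, exons of other transcripts left out, CpG dinucleotides in capitals).
Ccnd3 distal start, chr17:47504801-47505050: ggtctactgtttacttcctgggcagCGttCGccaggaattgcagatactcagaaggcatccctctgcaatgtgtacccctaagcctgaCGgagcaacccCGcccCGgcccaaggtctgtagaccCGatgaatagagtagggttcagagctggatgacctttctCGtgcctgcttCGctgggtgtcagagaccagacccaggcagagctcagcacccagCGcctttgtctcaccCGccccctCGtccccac
Ccnd3 internal start, chr17:47593217-47593435: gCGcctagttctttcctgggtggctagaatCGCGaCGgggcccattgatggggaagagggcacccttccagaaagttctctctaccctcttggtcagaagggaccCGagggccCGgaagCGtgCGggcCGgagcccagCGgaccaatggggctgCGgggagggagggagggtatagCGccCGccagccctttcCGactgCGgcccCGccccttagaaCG
The distal stretch of 250 bases holds 11 CpG and the internal stretch of 219 bases holds 17. Transcripts Ccnd3-202, Ccnd3-203 and Ccnd3-215 begin at or just after the distal window, and Ccnd3-205 begins at the internal one, inside an intron of the longer transcripts.

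Among Ccnd3 transcripts, Ccnd3-202 (protein coding) held 46.1%, 30.6%, 31.2%, 20.9% and 30.1% of the gene's estimated counts in Naive 1 to 5. It was listed at 0 in every Ag+Costim library and in 4 of 5 Ag libraries, with 23.6% in Ag 4. The upper 95% Wilson bound of these zeros was at most 0.264%, in Ag 3 with 1449 Ccnd3 counts, and covers counting error only. Transcript use of Ccnd3 was called different in Ag+Costim against Naive (edgeR diffSpliceDGE, gene-level adjusted p = 0.00118) and in Ag+Costim against Ag (adjusted p = 0.0245), where 2.56% and 1.80% of the 7501 genes tested were called, but not in Ag against Naive (adjusted p = 0.207, with 1.47% called). The retained-intron transcript Ccnd3-203 held 1.48% to 14.1% in Naive and at most 0.421% in Ag+Costim. In Ag it held 11.5% and 9.9% in Ag 1 and Ag 4 and at most 1.52% in the other libraries. The internal transcript Ccnd3-205 held 82.7% in Ag 2, 70.0% in Ag 3 and 92.9% in Ag+Costim 4, and 0.554% to 10.2% in the other 12 libraries. In these 3 libraries Ccnd3-215 was listed at 0, and elsewhere it held 30.8% to 92.5%. Ccnd3-205 and Ccnd3-215 therefore replaced each other between libraries of one group, and these are estimates from short single reads.

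**Figure D2:**
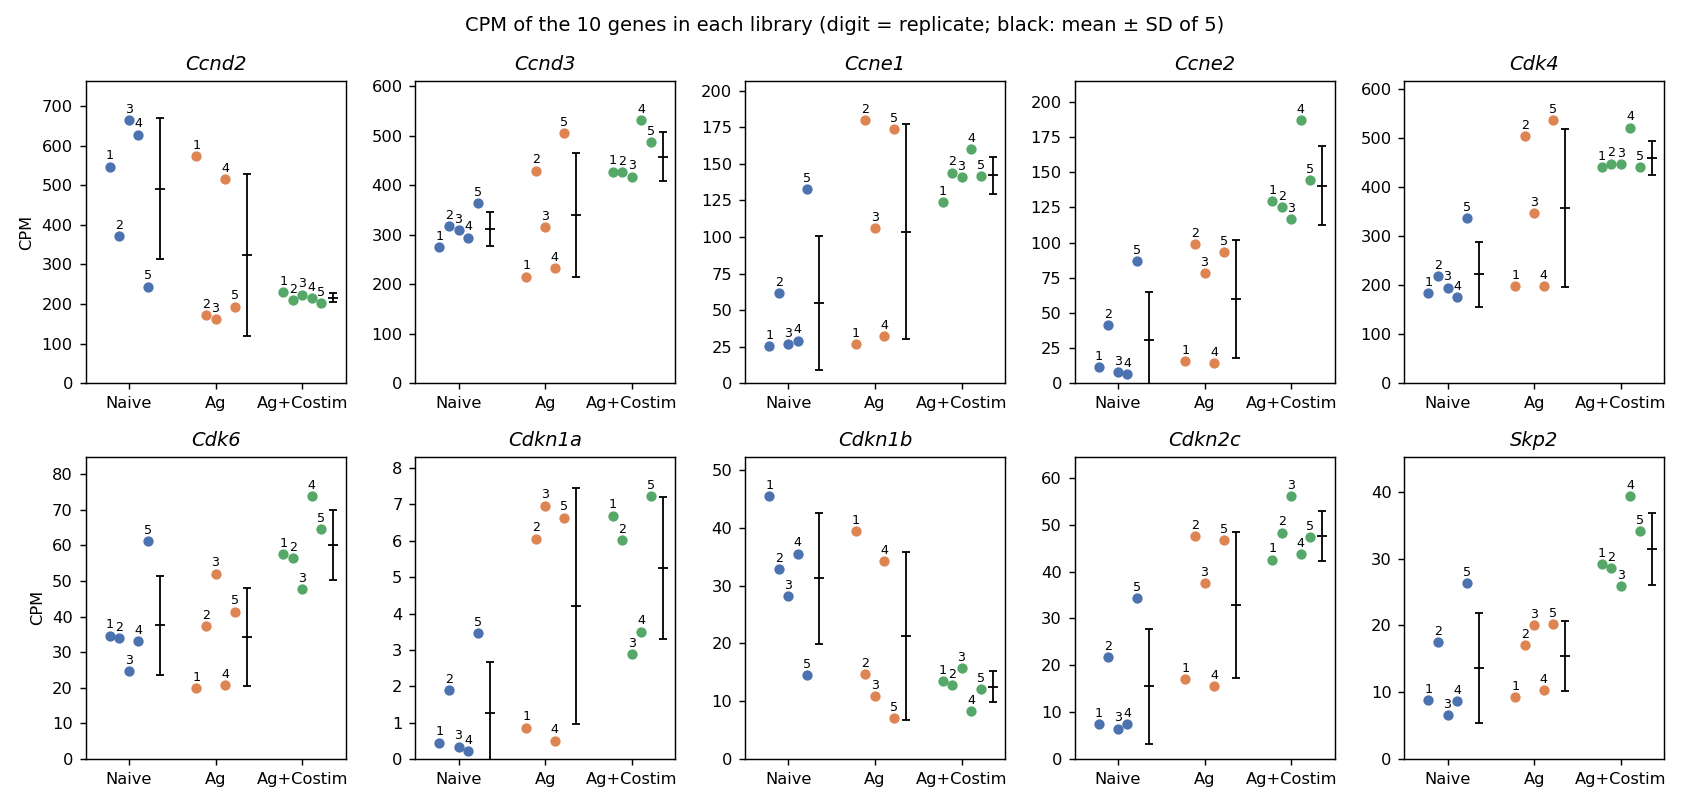
CPM of each gene (vertical axes, linear, from 0) in each library, with the replicate number as the marker, and the mean ± SD of 5 libraries in black. In Ccnd2 every Ag+Costim library is under every Naive library, and in Ccnd3, Ccne2, Cdk4 and Cdkn2c every one is over. The Ag libraries split, with replicates 1 and 4 apart from the others in every gene. Replicates 1 and 4 are near most Naive libraries in Ccnd2 and Cdk4, for example, but below all of them in Ccnd3 and Cdk6.

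The D cyclins' kinases differed in abundance per length. Cdk4 (chr10:127063534-127067920, plus strand) was at 183, 219, 195, 176 and 338 CPM in Naive. It was at 199, 504, 348, 198 and 537 CPM in Ag and at 442, 448, 447, 522 and 442 CPM in Ag+Costim. Ag 2 and Ag 5 were at or above the Ag+Costim level, Ag 1 and Ag 4 were at the Naive level, and Naive 5 stood apart from the other Naive libraries. Cdk4 rose by 1.05 ± 0.28 in log2 fold change in Ag+Costim against Naive (adjusted p = 0.0128, edgeR), and this call held in 26 of 27 alternatives, all but the fit with lane as a term. The log2 fold change was 0.68 in Ag against Naive (adjusted p = 0.126) and 0.37 in Ag+Costim against Ag (adjusted p = 0.399). Tspan31 overlaps it on the opposite strand (641 bases, 19.7% of Cdk4 exonic bases), so reads there cannot be told apart.

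Transcript shares of Cdk4 followed the lane. The retained-intron transcript Cdk4-207 held 64.0%, 69.5%, 47.9%, 66.8% and 34.2% of Cdk4 counts in Naive and 7.68% to 20.6% in Ag. In Ag+Costim it held 15.2%, 17.6% and 10.1% in replicates 1 to 3, on lane 2, and 27.5% and 42.3% in replicates 4 and 5, on lane 3. All lane 2 libraries were below all lane 3 libraries. Transcript use of Cdk4 was called different in Ag+Costim against Naive (diffSpliceDGE, adjusted p = 0.0135) and in neither other comparison (adjusted p = 0.147 and 0.653), and the part of the lane in it was not tested.

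Cdk6 (chr5:3341485-3531008, plus strand) was at 34.6, 33.9, 24.7, 33.1 and 61.2 CPM in Naive. It was at 20.0, 37.3, 52.0, 20.8 and 41.4 CPM in Ag and at 57.6, 56.3, 47.8, 73.8 and 64.6 CPM in Ag+Costim. The Ag+Costim libraries were the highest apart from Naive 5 and Ag 3, so groups overlapped in both contrasts. The log2 fold change was 0.68 ± 0.28 in Ag+Costim against Naive (adjusted p = 0.0587, edgeR) and 0.81 ± 0.28 in Ag+Costim against Ag (adjusted p = 0.101). Without Naive 5 the former was called (0.94, adjusted p = 0.00983), and without Ag 2 the latter was (1.01, adjusted p = 0.0365). The difference of Ag from Naive was -0.13 (adjusted p = 0.766) and changed sign without Naive 5, to 0.12, and with lane as a term, to 0.23. Per length, Cdk4 exceeded Cdk6 by 16.5 to 27.0 times in Naive libraries, 30.3 to 51.5 times in Ag and 27.5 to 35.8 times in Ag+Costim. These per-length ratios did not overlap between Naive and either antigen group, but narrowly so against Ag+Costim (27.0 in Naive 3, 27.5 in Ag+Costim 5). They depend on the estimated mix of transcripts, whose Cdk4 shares followed the lane. Taken from CPM alone, the ratio of Cdk4 to Cdk6 in Naive 3 was above those of Ag 3 and Ag+Costim 5, so the groups overlapped.

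The E cyclins, partners of CDK2 at the G1 to S transition, were low in most Naive libraries. Ccne2 (chr4:11191351-11204779, plus strand) was at 11.7, 41.2, 7.65, 6.67 and 86.7 CPM in Naive. It was at 15.7, 98.9, 78.4, 14.1 and 93.0 CPM in Ag and at 130, 125, 117, 187 and 145 CPM in Ag+Costim. Every Ag+Costim library was above every library of the other groups, while the Ag libraries fell into a low pair (Ag 1 and Ag 4) and a high trio. Ccne2 rose by 2.19 ± 0.72 in log2 fold change in Ag+Costim against Naive (adjusted p = 0.0276, edgeR). The values were 0.96 ± 0.70 in Ag against Naive (adjusted p = 0.353) and 1.23 ± 0.70 in Ag+Costim against Ag (adjusted p = 0.274). Of its exonic bases 609 (17.4%) overlap Ints8 on the opposite strand, where reads cannot be told apart.

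Ccne1 (chr7:38097984-38107534, minus strand) was at 25.3, 61.4, 27.0, 29.2 and 133 CPM in Naive. It was at 26.5, 180, 106, 32.4 and 174 CPM in Ag and at 124, 144, 141, 160 and 142 CPM in Ag+Costim. Naive 5 reached the Ag+Costim range, and Ag 2 and Ag 5 were above it. The log2 fold changes were 1.37 ± 0.56 in Ag+Costim against Naive (adjusted p = 0.0583, edgeR), 0.91 ± 0.55 in Ag against Naive (adjusted p = 0.272) and 0.45 ± 0.55 in Ag+Costim against Ag (adjusted p = 0.609). Without Naive 5 the first was 2.01 and called (adjusted p = 0.00756). Without both Ag 2 and Ag 5 the value of Ag against Naive turned to -0.16. Per length, Ccne1 exceeded Ccne2 by 2.26 to 7.16 times in Naive libraries, 2.01 to 3.48 times in Ag and 1.26 to 1.75 times in Ag+Costim, and the Ag+Costim ratios were below all others.

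Of the inhibitors, Cdkn1b fell. Cdkn1b (chr6:134920401-134925513, plus strand) was at 45.5, 32.9, 28.2, 35.6 and 14.5 CPM in Naive. It was at 39.5, 14.7, 10.9, 34.2 and 7.07 CPM in Ag and at 13.5, 12.8, 15.7, 8.30 and 12.1 CPM in Ag+Costim. Naive 5 alone among the Naive libraries lay inside the Ag+Costim range, and Ag 1 and Ag 4 alone among the Ag libraries lay above it. Cdkn1b fell by 1.33 ± 0.42 on the log2 scale in Ag+Costim against Naive (adjusted p = 0.0247, edgeR). The values were -0.55 in Ag against Naive (adjusted p = 0.370) and -0.78 in Ag+Costim against Ag (adjusted p = 0.250).

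Cdkn1a (chr17:29090976-29100727, plus strand), a target of the factor p53 in other settings, had the lowest mean level per length of the 10 genes in each group, although Cdkn1b was below it in Ag 3 and Ag 5. It was at 0.45, 1.89, 0.34, 0.21 and 3.46 CPM in Naive. It was at 0.86, 6.06, 6.97, 0.50 and 6.64 CPM in Ag and at 6.69, 6.01, 2.88, 3.50 and 7.23 CPM in Ag+Costim. Naive 5 was within the Ag+Costim range and the other Naive libraries were below it. Cdkn1a rose by 2.06 ± 0.80 in log2 fold change in Ag+Costim against Naive, close to the threshold (adjusted p = 0.0495, edgeR), and this call held in 15 of 27 alternatives. In Ag against Naive the value was 1.73 ± 0.80 (adjusted p = 0.173), and in Ag+Costim against Ag it was 0.34 ± 0.77 (adjusted p = 0.795). Per length, Cdkn1b was 2.60 to 57.4 times Cdkn1a in Naive and 1.09 to 2.93 times in Ag+Costim, with 0.426 to 24.3 times in Ag.

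Cdkn2c (chr4:109660876-109667189, minus strand) rose, in contrast to Cdkn1b. It was at 7.49, 21.7, 6.45, 7.43 and 34.3 CPM in Naive. It was at 17.0, 47.5, 37.5, 15.6 and 46.8 CPM in Ag and at 42.5, 48.3, 56.1, 43.7 and 47.3 CPM in Ag+Costim. Every Ag+Costim library was above every Naive library, and Ag 2 and Ag 5 were level with them. The log2 fold change in Ag+Costim against Naive was 1.62 ± 0.47 (adjusted p = 0.0170, edgeR), and the call held in 25 of 27 alternatives. In Ag against Naive it was 1.09 ± 0.46 (adjusted p = 0.142) and in Ag+Costim against Ag 0.53 ± 0.46 (adjusted p = 0.457). Per length, Cdkn1b was 0.341 to 3.63 times Cdkn2c in Naive and 0.167 to 0.254 times in Ag+Costim. Cdkn2c was thus the higher of the pair in every Ag+Costim library, and Cdkn1b was the higher in some Naive libraries.

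Cdkn2c has 2 annotated transcripts with different first exons. The bases before the start of Cdkn2c-201, the inner one, are shown because this transcript held most of the counts in Naive 3 and Naive 4 and a minority in the other libraries (RefSeq promoter window on GRCm38, minus strand, printed 5′ to 3′ along the gene, an exon of Cdkn2c-202 left out, CpG in capitals).
Cdkn2c-201 upstream bases, chr4:109665373-109665609: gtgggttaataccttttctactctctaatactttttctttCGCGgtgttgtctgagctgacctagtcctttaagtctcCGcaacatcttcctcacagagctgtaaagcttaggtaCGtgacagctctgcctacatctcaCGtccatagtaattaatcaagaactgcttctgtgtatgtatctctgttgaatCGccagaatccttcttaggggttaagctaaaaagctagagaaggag
This stretch of 237 bases holds 6 CpG. The window before the outer start, of 250 bases, holds 29, and lies wholly in an exon of Cdkn2c-202, so it is not printed. Over all RefSeq windows the median was 6 CpG in the 250 upstream bases.

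Cdkn2c-201 held 30.8%, 38.2%, 75.1%, 78.5% and 6.40% of Cdkn2c counts in Naive 1 to 5. It held 13.2%, 0.726%, 15.1%, 13.8% and 4.82% in Ag and 1.34% to 6.54% in Ag+Costim, and Cdkn2c-202 held the rest. Naive 1 to 4 were above all other libraries, and Naive 5 was level with Ag+Costim. These shares rest on few counts, 107 for Naive 4 (95% Wilson interval 69.8% to 85.2%) and 516 for Naive 5 (4.59% to 8.85%). The difference in transcript use was not called in Ag+Costim against Naive (diffSpliceDGE, adjusted p = 0.128).

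Skp2 (chr15:9111985-9155425, minus strand) rose in Ag+Costim. It was at 8.84, 17.5, 6.60, 8.68 and 26.3 CPM in Naive. It was at 9.30, 17.1, 20.0, 10.3 and 20.2 CPM in Ag and at 29.2, 28.6, 25.9, 39.4 and 34.2 CPM in Ag+Costim. Every Ag+Costim library was above every Ag library, and Naive 5 alone among the Naive libraries reached the Ag+Costim range. The log2 fold change was 1.21 ± 0.35 in Ag+Costim against Naive (adjusted p = 0.0175, edgeR) and 0.18 ± 0.35 in Ag against Naive (adjusted p = 0.752). Its difference in Ag+Costim against Ag was 1.04 ± 0.35 (adjusted p = 0.0970), and it was called there by DESeq2 (1.05, adjusted p = 0.0267), without Ag 2 (1.22, adjusted p = 0.0425) and without Ag 5 (1.17, adjusted p = 0.0471). Within lane 2 the same value was 0.88 (adjusted p = 0.628).

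Skp2 has 2 RefSeq starts, and the bases before each are shown because they differ in composition and only the inner one lies near the transcripts that held nearly all Skp2 counts (GRCm38, minus strand, printed along the gene, exons of the neighbour Lmbrd2 left out; CpG in capitals in the first, the hexamer TTTGAA in capitals in the second).
Skp2 inner start, chr15:9140455-9140549: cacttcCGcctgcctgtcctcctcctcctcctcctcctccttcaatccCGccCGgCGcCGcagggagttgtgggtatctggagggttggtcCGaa
Skp2 outer start, chr15:9155426-9155532: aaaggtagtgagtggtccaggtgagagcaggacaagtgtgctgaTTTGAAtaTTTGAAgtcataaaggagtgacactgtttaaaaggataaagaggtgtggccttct
The inner stretch holds 6 CpG in 95 bases and the outer stretch 0 in 107. Promoter windows of 300 bases were found for 8 of the 10 genes, 12 windows in all. They were searched on both strands for the E2F octamers TTTCCCGC, TTTGGCGC, TTTCGCGC and TTTGCCGC and for the hexamers TTTGAA and TTCGAA of the cell cycle homology region. No window held an octamer, which 2.26% of all 32851 windows did, and the outer Skp2 window alone held a hexamer (2 copies), which 19.2% of all windows did. Such a match is a description of letters, not of a site in use.

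Skp2-201, which begins just after the inner start and was its most counted transcript in all libraries but Naive 2 and Naive 4, held 58.7%, 41.9%, 78.5%, 32.0% and 83.6% of Skp2 counts in Naive 1 to 5. It held 48.1%, 83.1%, 58.7%, 56.2% and 93.8% in Ag, and 78.2%, 75.3%, 79.9%, 84.0% and 91.3% in Ag+Costim. The Ag+Costim libraries were close together and the other groups were wide, and all groups overlapped. The depth was 92 Skp2 counts in Ag 3 to 607 in Ag+Costim 4, and the 95% Wilson interval of Naive 4 (125 counts) was 24.5% to 40.6%. Mean shares were 58.9% ± 22.4 in the Naive group, 68.0% ± 19.4 in Ag and 81.7% ± 6.19 in Ag+Costim (SD, n = 5 each). The difference of Ag+Costim from Naive was 22.8 percentage points (exact two-sided permutation test, p = 0.0794, adjusted over the 3 comparisons p = 0.238). The other differences were 9.05 points for Ag against Naive (exact permutation, p = 0.516, adjusted p = 0.516) and 13.7 points for Ag+Costim against Ag (exact permutation, p = 0.159, adjusted p = 0.238). The smallest p that 5 against 5 libraries allow is 0.00794. The other coding transcript, Skp2-202, held 30.2% on average in the Naive group, 22.9% in Ag and 14.2% in Ag+Costim, and 49.5% and 49.6% in Naive 2 and Naive 4, above Skp2-201 there. The retained-intron transcript Skp2-205 held 2.27% to 17.6% in the Naive group, 3.73% to 10.2% in Ag and 2.80% to 4.83% in Ag+Costim.

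**Figure D3:**
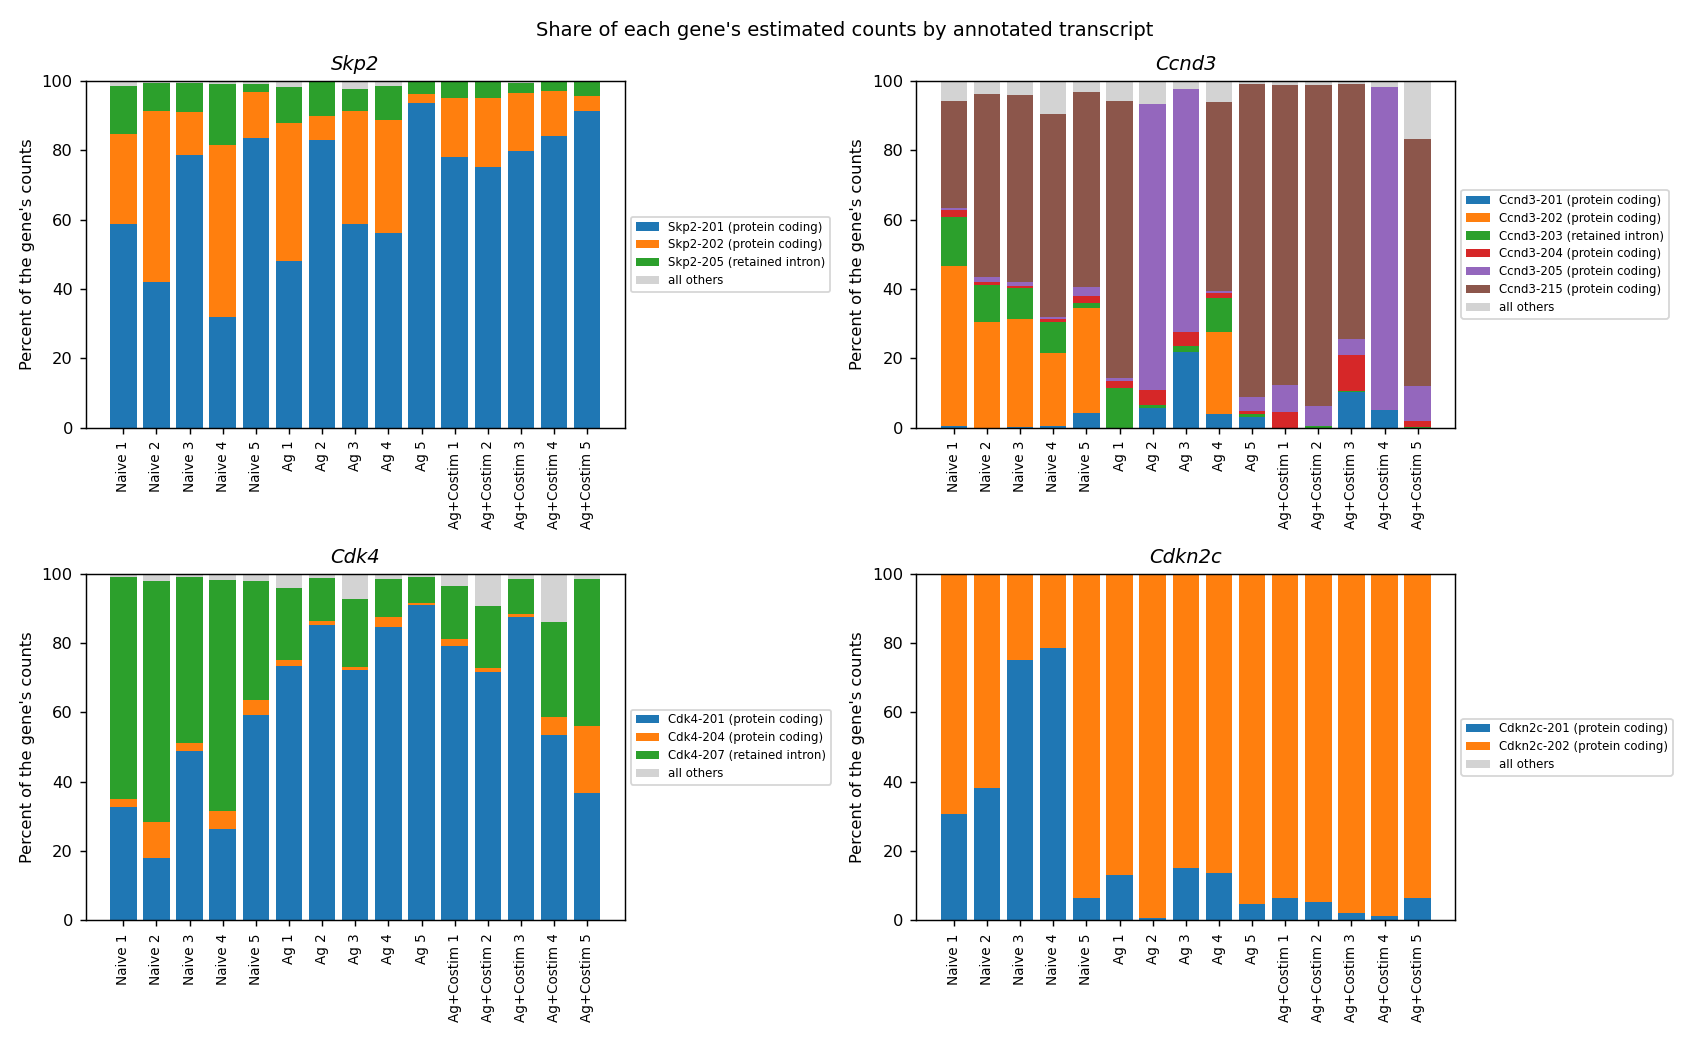
Stacked bars give the percent of each gene's estimated counts held by its annotated transcripts in each library, for Skp2, Ccnd3, Cdk4 and Cdkn2c. Ccnd3-202 is present in all 5 Naive libraries and in Ag 4 and listed at 0 elsewhere, and Cdkn2c-201 is above 30% in Naive 1 to 4 alone.

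On the per-length scale (TPM, in which transcript counts are divided by transcript length and each library is scaled to the same sum), the mean level of Ccnd3 was 296 ± 14.0 in the Naive group, 262 ± 52.8 in Ag and 360 ± 51.8 in Ag+Costim (SD, n = 5 each). That of Cdk4 was 189 ± 52.1, 254 ± 80.7 and 383 ± 47.6 in the same order. These were the 2 highest mean levels of the 10 in each group, although Ccnd2 was above Cdk4 in Naive 1, Naive 3 and Naive 4. In Ag+Costim the libraries of Ccnd3 and Cdk4 overlapped (309 to 430 for Ccnd3, 336 to 459 for Cdk4). Ccnd2 was at 139 ± 55.6, 87.8 ± 63.4 and 53.9 ± 3.12, and Ccne1 at 46.0 ± 34.3, 70.7 ± 44.5 and 106 ± 9.08. In Naive, Ccnd2 stood above Ccne1 on average, and in Ag+Costim all Ccne1 libraries (91.8 to 117) were above all Ccnd2 libraries (49.9 to 57.4). Cdkn1a was the lowest in each group, at 1.21 ± 1.18, 3.67 ± 2.72 and 4.63 ± 1.55.

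The spread within groups differed. The SD of log2(CPM + 1) was wider in Ag than in Ag+Costim for 10 of 10, and also for 94.7% of all genes tested. It was wider in Ag than in Naive for 7 of the 10, and for 13705 of all 17366 genes tested, while Ccne2, Cdkn2c and Skp2 were wider in Naive. Its median over the 10 genes was 0.686 in the Naive, 0.830 in the Ag and 0.192 in the Ag+Costim libraries, beside 0.303, 0.484 and 0.139 over all genes. In Ag 1 and Ag 4, 8 of the 10 genes were below their levels in each of Ag 2, Ag 3 and Ag 5, and the other pair, Ccnd2 and Cdkn1b, was above. In bulk RNA, fewer cells of a type and less RNA per cell cannot be told apart.

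**Figure D4:**
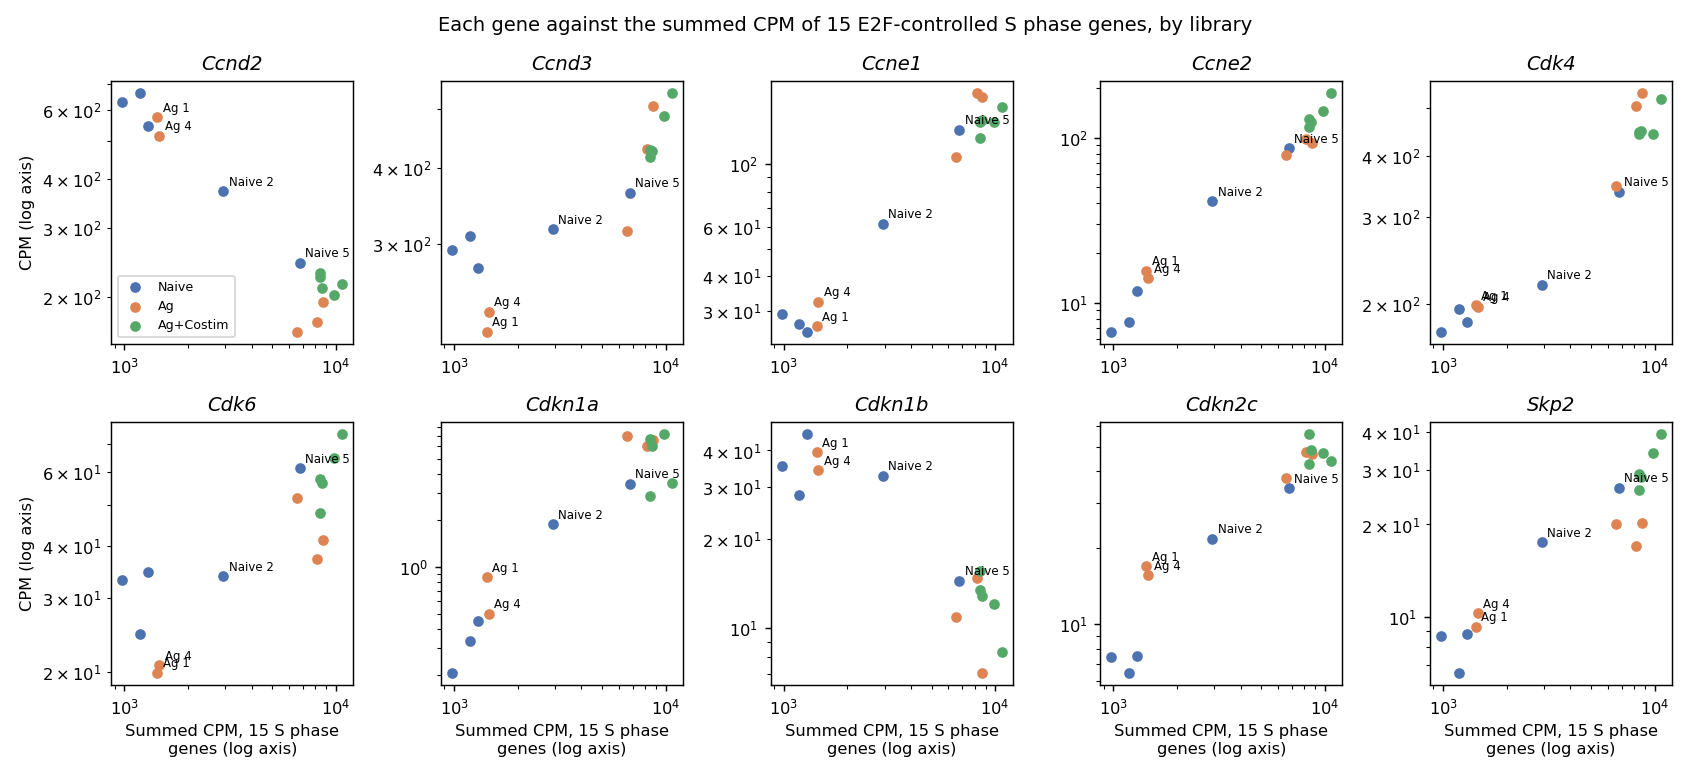
CPM of each gene (vertical axes, log) against the summed CPM of 15 E2F-controlled S phase genes (horizontal axes, log), 1 point per library coloured by group. Ag 1 and Ag 4, at sums of 1430 and 1459, lie beside Naive 1, 3 and 4, and Naive 5, at 6765, lies beside the other Ag libraries.

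Genes with the most similar profile over the 15 libraries were searched among 8652 genes, with the root mean square difference of centred log2 CPM as the measure. Nearest to Ccne1 were Orc6, Pcna and Rfc5 (0.16 each), and nearest to Ccne2 were Lig1 (0.20), Uhrf1 (0.20) and Cip2a (0.21). Nearest to Ccnd2 were Il27ra (0.17), Fam169b (0.17) and Orai2 (0.18), and nearest to Ccnd3 were Hmgn1 (0.06), Rnps1 (0.07) and Rsl1d1 (0.09). Cdk4 was nearest to Vdac3, Psma1 and Aldoa (0.08 each), and Cdk6 to Urb2, Haus6 and Srsf1 (0.19 each). For the inhibitors, Cdkn1b was nearest to Ankrd12 (0.20), Nipbl (0.20) and Stx16 (0.22), and Cdkn2c to Cenpl (0.21), Txn1 (0.22) and Tbx21 (0.22). Cdkn1a, with the largest differences, was nearest to Smpdl3b (0.31), Ctla2b (0.36) and Gins1 (0.38). The differences are not scaled to a gene's own variation over the libraries, whose root mean square was 1.57 for Cdkn1a and 0.57 for Cdk6. Skp2 was nearest to Trim37 (0.22), Rbbp8 (0.23) and Siah1b (0.24).

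Around the 10 genes, the genes of 4 related lists were tested in Ag+Costim against Naive, where 21.0% of all genes tested were called higher and 23.6% lower. Of 10 other G1 cyclins, kinases and inhibitors, 7 were tested and 2 rose, Cdk2 (log2 fold change 1.67, adjusted p = 0.00948), the kinase of the E cyclins, and Ccnh (0.70, adjusted p = 0.00950), the cyclin of the CDK-activating kinase. Not called were Mnat1 (0.23, adjusted p = 0.0705), the INK4 gene Cdkn2d (0.32, adjusted p = 0.0775) and Ccnd1 (0.21, adjusted p = 0.781), the remaining D cyclin gene, whose per-length level was 0.190 to 2.72. The median over the 7 genes was 0.32, and 2 of 7 is near the share over all genes. The filter left out Cdkn1c, Cdkn2a and Cdkn2b.

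Of 13 pocket proteins and E2F factors, 6 rose and 2 fell, with a median of 0.91. Those that rose were E2f3 (1.50, adjusted p = 0.00742, edgeR), E2f4 (0.91, adjusted p = 0.0117), Rbl1 (0.79, adjusted p = 0.0127), E2f6 (0.65), E2f2 (1.40) and Tfdp1 (1.61), and those that fell were E2f5 (-0.63) and Tfdp2 (-1.09). Not called were Rb1, the founding pocket protein gene (0.21, adjusted p = 0.526), its relative Rbl2 (-0.42, adjusted p = 0.0814), and the E2F genes E2f1 (1.19, adjusted p = 0.0775), E2f7 (1.88, adjusted p = 0.0743) and E2f8 (1.94, adjusted p = 0.0780). Of 6 ubiquitin ligase partners and rivals of Skp2, 3 rose: Fzr1 (1.35, adjusted p = 0.0109), an activator of the ligase that targets Skp2 itself, the scaffold gene Cul1 (0.48, adjusted p = 0.0166) and the Skp2 cofactor gene Cks1b (2.09, adjusted p = 0.0423). The median over the 6 was 0.40.

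Of the 15 E2F-controlled S phase genes, 14 rose, beside 21.0% of all genes called higher, and the median was 1.78. The smallest adjusted p-values were those of Mcm6 (1.67, adjusted p = 0.0162), Mcm3 (1.78, adjusted p = 0.0223) and Mcm2 (1.62, adjusted p = 0.0245), parts of the replicative helicase. Larger rises were those of Rrm2 (2.24, adjusted p = 0.0487) and Cdc6 (2.15, adjusted p = 0.0487). The exception was Ccna2 (2.06, adjusted p = 0.0702), and all 15 were higher in every Ag+Costim library than in every Naive library, a pattern that 22.7% of all genes showed. With lane as a term no gene of the 4 lists was called, where 258 of all 17366 genes were called higher in Ag+Costim against Naive and 685 lower. The 14 S phase calls became 1 without Naive 1, Naive 3 or Naive 4, 3 without Ag+Costim 5, 6 without Ag+Costim 2, 7 without Naive 2 or Ag+Costim 1, 8 without Ag+Costim 3 and 9 without Ag+Costim 4. They were 7 with no filter on low counts and 6 within lane 3. Calls higher over all genes also varied, from 3648 in the main fit. Without Naive 1, 2, 3 and 4 there were 1447, 2738, 1999 and 1413. Without Ag+Costim 1 to 5 there were 2524, 2488, 2683, 3179 and 2267. With no filter there were 2409, and within lane 3 there were 2571. For the pocket proteins and E2F factors the calls, 6 higher and 2 lower, became 4 and 0 without Naive 1 or Naive 4, 6 and 0 without Ag+Costim 1, without Ag+Costim 4 or with no filter, and 10 and 2 without Naive 5. Calls lower over all genes were 4107 in the main fit and 2488 and 2479 without Naive 1 and Naive 4. They were 3151 and 2191 without Ag+Costim 1 and 4, and 1749 with no filter. Without Naive 5, 4604 of 17981 genes were called higher and 4560 lower. The 3 ligase calls became 1 without Naive 4 or with no filter, and the 2 calls of the other G1 genes became 5 without Ag 2. In the fit without Ag 2, 4619 of all 18092 genes were called higher and 3875 lower. The lists were chosen with earlier results of these data known and are described by counts alone.

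In Ag against Naive and in Ag+Costim against Ag none of the genes of these 4 lists was called by edgeR. At an unadjusted p under 0.05 there were 4 of the other G1 genes and 1 ligase gene in Ag against Naive, and 4 pocket and E2F genes, 1 ligase gene and 1 S phase gene in Ag+Costim against Ag. Such a p was held by 4980 and 4647 of all 17366 genes in the same order. The counts called in these lists depended on the tool. In Ag+Costim against Ag, limma-voom called 15 of the 15 S phase genes higher, 10 of the 13 pocket and E2F genes higher and 1 lower, 5 of the 6 ligase genes higher and 4 of the 7 other G1 genes higher, while DESeq2 called 1, 2, 1 and 0 of them higher. Among all 17366 genes, limma-voom called 5437 higher and 5758 lower there, and DESeq2 called 664 higher. In Ag against Naive, limma-voom called 1 S phase gene higher and 1 lower and 2 pocket and E2F genes higher and 1 lower, and DESeq2 called 1 of the other G1 genes. Over all genes these tools called 1873 and 1281 higher there and 2147 and 1497 lower. Without Naive 5, edgeR called 10 S phase genes, 6 pocket and E2F genes, 2 ligase genes and 2 other G1 genes higher in Ag against Naive. That fit called 2270 of all 17981 genes higher. For Ag+Costim against Ag, edgeR called 1 S phase gene and 1 ligase gene higher when Ag 2 or Ag 5 was left out, with 2 and 3 pocket and E2F genes, respectively, and 1 of the other G1 genes without Ag 2. Beside these, 965 of 18092 genes were called higher without Ag 2 and 756 of 18108 without Ag 5. In Ag against Naive, 1 of the other G1 genes was called when Ag 1 or Ag 4 was left out. Over all genes, 901 were then called higher and 936 lower without Ag 1, and 904 and 1079 without Ag 4. The smallest adjusted p-values in Ag against Naive were those of Ccnh (0.0842), Mnat1 (0.160) and Cdk2 (0.162) among the G1 genes, Fzr1 (0.160), Cks1b (0.187) and Rbx1 (0.200) among the ligase genes, Tyms (0.175) and Pcna (0.192) among the S phase genes, and Rbl2 (0.197), E2f2 (0.199) and E2f3 (0.239) among the pocket and E2F genes. In Ag+Costim against Ag they were those of E2f6 (0.0807), Rbl1 (0.0844) and E2f3 (0.120), of Cul1 (0.0807), Fzr1 (0.266) and Skp1a (0.655), of Cdt1 (0.111), Mcm2 (0.242) and Mcm6 (0.266), and of Cdk2 (0.223), Ccnd1 (0.254) and Cdc25a (0.401). All of these p-values are from edgeR.

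**Figure D5:**
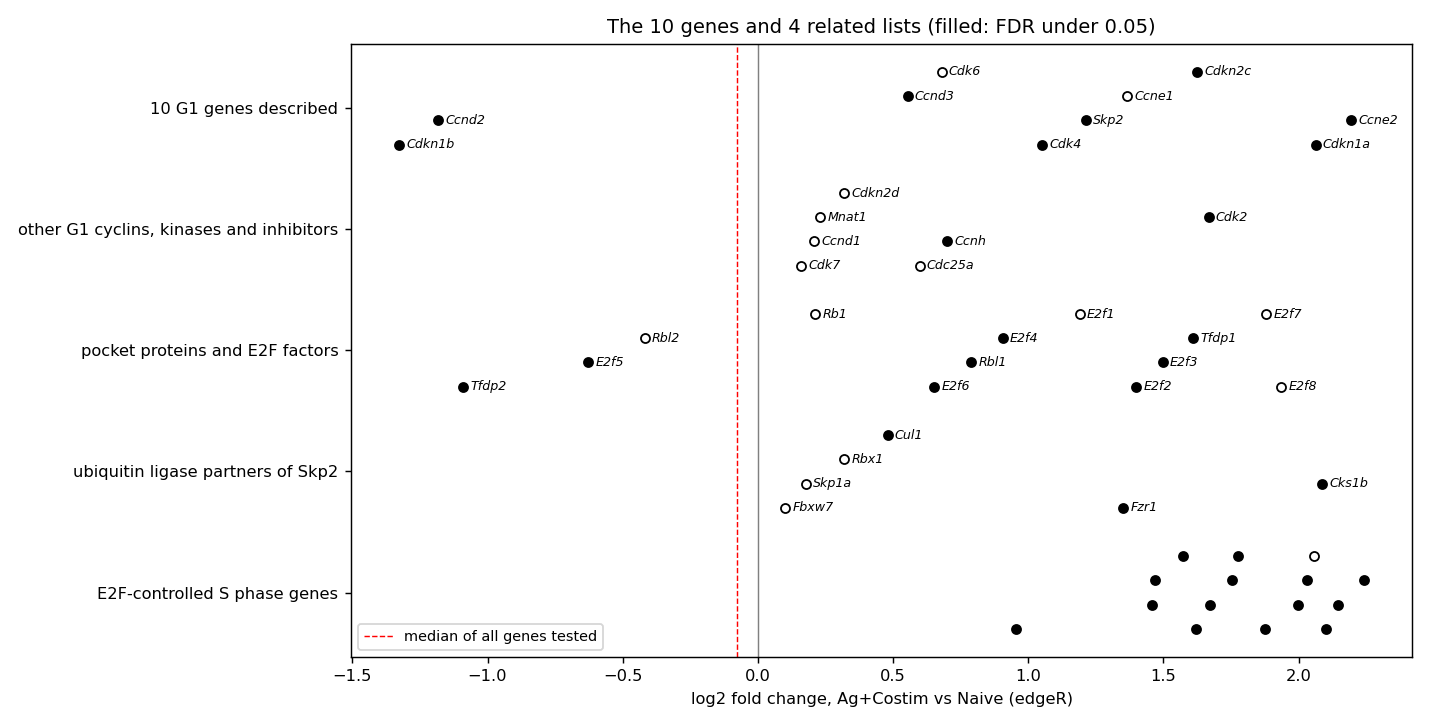
Log2 fold change (edgeR) in Ag+Costim against Naive of each tested gene in the 10 described genes and 4 related lists, filled where the adjusted p is under 0.05, with the median of all genes tested (-0.08) as a dashed line. All 15 S phase genes lie to the right of it, 14 of them filled, and the 10 described genes lie on both sides.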

How the data were processed

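CD8+ T cells sorted from mouse spleen and lymph nodes were profiled by RNA sequencing of poly(A) RNA (SMART-Seq v4 with Nextera XT, unstranded, single reads of 50 bases). The study's methods give a longer read than this for its transcriptomics. Per the submitters' processing notes, the authors used HISAT2 2.1.0, SAMtools 1.9, StringTie 2.1.0, R 4.0.5 and DESeq2 1.30.1 with build mm10. The annotation release is not given in the sources used here. The deposited gene and transcript tables hold StringTie's estimated counts, which are whole numbers and not normalised. The deposited sequencing table gives the count of reads, the percent of reads aligned and the lane of each library. The deposited FPKM table was not used, since its columns of Ag 1 and Naive 5 are identical.

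Of 81881 entries of the gene table, 55536 matched GENCODE M21 by identifier. The 26248 entries named by a number alone, 0.0818% of all counts, and 97 others with 0 counts were left out. Libraries of a group differed beyond sampling noise (lowest chi-square per degree of freedom 5.62), so none were merged. edgeR 4.0.16 in R 4.3.3 was fitted to all 15 libraries (filterByExpr, TMM scaling, robust quasi-likelihood, group as the only term), with Benjamini-Hochberg adjustment over 17366 genes and a threshold of 0.05. The common biological coefficient of variation was 0.431. CPM values use the TMM-scaled library sizes. Per-length levels divide transcript counts by transcript length. Transcript use was tested with diffSpliceDGE over 7501 genes and, for Skp2-201, by exact permutation of libraries. Estimated counts of a gene with an overlapping neighbour are uncertain. Alternatives were DESeq2 1.42.0, limma 3.58.1 (voom), other scalings and filters, lane, pairing and left-out libraries. Scripts were tested on simulated data. The 10 genes and the related lists were chosen with earlier results of these data known. By rule, the 10 genes were named throughout, and from each list the 3 genes of smallest adjusted p per comparison plus Ccnd1, Cdk2, Rb1, Cks1b, Rbl2 and Cdkn2d. A result that this rule would name is not reported here. The other E2F and S phase genes named were added with their values known. The reads carry no molecular identifiers, so intervals cover counting error only.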

Additional observations from a re-analysis of the deposited data

Results flagged for a closer look

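Of 33 groups of 5 libraries examined (the CPM of the 10 genes and the share of Skp2-201 in each group), 3 held a library far from the others by Dixon's test, and chance alone gives about 1 in 20 groups. Naive 5 had the highest Cdk4 level of the Naive group, 338 CPM, with a gap of 0.732 of the group's range to the next library. Naive 5 also had the highest Cdk6 level of that group, 61.2 CPM, with a gap of 0.726 of the range. Ag+Costim 4 had a Cdk4 level of 522 CPM, with a gap of 0.922 of the range. Naive 5 is also the Naive library with the highest summed S phase level (6765 CPM) and myeloid marker level (161 CPM), and the part of these in its Cdk4 and Cdk6 levels was not tested.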

How the results depend on the processing

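With 0 genes called in the 2 comparisons with Ag and 8 in Ag+Costim against Naive, the counts under other settings were as follows. DESeq2 called 0 of the 10 genes in Ag against Naive, 2 in Ag+Costim against Ag and 10 in Ag+Costim against Naive, and limma-voom called 1, 10 and 10. Among all 17366 genes, DESeq2 called 1281, 664 and 4168 higher and 1497, 1869 and 5028 lower in the same order. With limma-voom these were 1873, 5437 and 6418 higher and 2147, 5758 and 7107 lower. In Ag+Costim against Naive the count was 8 with RLE size factors, 6 with library totals, 10 with its own libraries alone, 5 with no filter on low counts, 5 within lane 3 and 0 with lane as a term, and the cause was not tested. Over all genes, calls higher and lower there were 3604 and 4267 with RLE and 3016 and 5102 with library totals. With its own libraries they were 4651 and 5554 of 15751, and with no filter 2409 and 1749 of 48994. Within lane 3 they were 2571 and 3772, and with the lane term 258 and 685. No fit within 1 lane was possible for Ag against Naive. Leaving out 1 library gave 0 to 4 calls in Ag against Naive (4 without Naive 5), 0 to 2 in Ag+Costim against Ag (2 without Ag 2 or Ag 5) and 2 to 10 in Ag+Costim against Naive (2 when Naive 1 was left out, 4 for Naive 3, 3 for Naive 4, 4 for Ag+Costim 4 and 3 for Ag+Costim 5). The calls over all genes without each named library are given with the lane results above. Chosen after seeing the data, leaving out Ag 3 and Naive 5 gave 2, 2 and 10 calls, leaving out Ag 2 and Ag 5 gave 0, 8 and 10, and leaving out Ag 1 and Naive 5 gave 6, 0 and 10. Among all 17263 genes the first fit called 2618, 498 and 5410 higher and 1327, 491 and 4693 lower. The second called 487, 4610 and 5583 of 19290 genes higher and 403, 5141 and 5294 lower. The third called 3363, 0 and 5125 of 17401 genes higher and 2073, 0 and 3995 lower. Signs changed in Ag against Naive alone, in 4 of the 10 genes, whose differences there were not called. Ccnd3 turned to -0.29 with limma-voom and ranged from -0.070 to 0.24 with 1 library left out, Cdk6 turned to 0.23 with lane as a term and ranged from -0.32 to 0.12, and without Ag 1 and Naive 5 it was 0.22. Without Ag 2 and Ag 5, Ccnd3 was -0.37, Ccne1 -0.16 and Skp2 -0.14. In Ag+Costim against Naive, of 270 values 196 kept their side of the threshold, 50 lost the call, 24 gained it and 0 changed sign. With library totals the median change over all genes there, on the log2 scale, was -0.23, beside -0.08, and no gene of the 10 changed sign. The Skp2-201 share difference of Ag+Costim from Naive was 24.5 points per length (exact permutation, unadjusted p = 0.0397) and 16.1 to 29.0 points with 1 library left out (exact permutation, unadjusted p = 0.0476 without Naive 5). These p-values were not adjusted over the 3 comparisons, as the main one was. Same-numbered libraries deviated together only in part (correlations -0.324 to 0.470). In Ag against Naive the values were 0.421, -0.118, -0.324, 0.470 and 0.405 for replicates 1 to 5. They cannot tell whether the numbers mark a pairing, and the main fits used none. With the replicate block the calls were 0, 0 and 9, and the Skp2-201 difference, 22.8 points, had an exact sign-flip permutation p of 0.0625 (unadjusted), the smallest that 5 pairs allow. With that block, 755, 0 and 4066 of all 17366 genes were called higher and 905, 0 and 3767 lower. The depth of Ag 3, 4865952 counts, limits low genes such as Cdkn1a and the Skp2 shares, and the wide spread in Ag limits both comparisons with that group.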
